A study of Mus musculus with 24 samples.

Results

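The EGF family and its receptors were followed through sorted intestinal secretory cells of the mouse. The 10 genes were taken by name from the 45513 genes counted in each library: the 7 ligand genes Egf, Tgfa, Areg, Ereg, Btc, Hbegf and Epgn, and the 3 receptor genes Egfr, Erbb2 and Erbb3. All 10 names were found. RNA was sequenced from live EpCAM+ tdTom+ cells of 2 tissues, small intestine (SI) and colon, and of 2 mouse lines. Both lines carried an inducible CreERT2 placed behind the Atoh1 coding sequence and the R26RtdTom reporter. Atoh1(WT)CreERT2 mice (WT) kept the wild-type ATOH1 protein, the transcription factor of secretory fate. Atoh1(9S/T-A)CreERT2 mice (9S/T-A) carried alanine at the 9 serine or threonine sites that precede proline. Per the study's methods, mice were homozygous for either allele, of C57BL/6 background, 8 to 16 weeks old and of both sexes. All mice received a single dose of 3 mg tamoxifen, and cells were sorted 24 h later from the proximal 15 cm of the SI and from the colon. Because the reporter is switched on only where Atoh1 is expressed, the libraries describe Atoh1-expressing cells and not the whole crypt. Each of the 4 groups of genotype and tissue held 6 libraries, numbered 2 to 7, with 3 female and 3 male numbers.

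EGF family ligands are made as membrane-anchored precursors that are cut by metalloproteases of the ADAM family, and the freed ligand binds EGFR on the same or a neighbouring cell. ERBB2 has no ligand of its own, ERBB3 has little kinase activity and binds neuregulins, and both signal as partners in receptor pairs. Active receptors feed the RAS to ERK kinase cascade, which induces its own brakes. In the SI, Paneth cells at the crypt base are a known source of EGF family ligands for the neighbouring stem cells, which need this signal to divide.

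Libraries held between 36 M and 65.8 M counts in total, so precision was set mainly by the spread between libraries; for Ereg and Epgn, with at most 37 counts per library, counting error mattered as well. The library numbered 7 had the lowest mean correlation with its own group in all 4 groups (0.9839 to 0.9876), followed by 9S/T-A SI library 2 (0.9889). Results were therefore also computed without all libraries numbered 7 and without all numbered 2. The cells carried the labelled identity: goblet genes such as Muc2 and Tff3 summed to 314610 to 442677 counts per M of library counts (CPM, scaled with TMM factors) in WT SI and 35664 to 56470 CPM in WT colon, and 8 Paneth genes summed to 59957 to 102411 CPM in WT SI against 64.6 to 153 CPM in WT colon. In 9S/T-A mice the Paneth sum was 49677 to 77839 CPM in SI and 94.4 to 142 CPM in colon. Stromal genes stayed at or below 0.287 CPM in sum in every library. Atoh1, the altered gene, was at 92.3 ± 15.5 CPM (SD, n = 6) in WT SI, 75 ± 11 in 9S/T-A SI, 103 ± 15.7 in WT colon and 85.9 ± 13.6 in 9S/T-A colon. These counts do not see the altered codons, so they check that the locus is expressed and not the allele.

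The genes lie as follows in GRCm38. Epgn (chr5:91027464-91035215, + strand), Ereg (chr5:91074617-91093649, +), Areg (chr5:91139615-91148432, +) and Btc (chr5:91357261-91402994, -) are neighbours in 1 cluster. Egf lies at chr3:129677565-129755316 (-) and Tgfa at chr6:86195251-86275639 (+). The receptors Egfr (chr11:16752203-16918158, +) and Erbb2 (chr11:98412470-98437716, +) share a chromosome, and Erbb3 lies at chr10:128567523-128589652 (-). The 4 clustered ligands differed widely in level, which is why stretches of the proximal promoters of Areg and Epgn are printed here. RefSeq promoter windows (GRCm38.p6; 250 bases before to 50 after the start site, n = 32851 over all genes) were searched on both strands for the AP-1 motif TGANTCA, the CRE motif TGACGTCA, the E-boxes CAGCTG and CAGATG, the TATA motif TATAAA and the GC box GGGCGG. Capitals mark the match in each 30-base stretch, which is written 5′ to 3′ on the gene's own strand.
Areg CRE (chr5:91139527-91139556, +): gggctggtccgTGACGTCAcgggcggtggc
Areg TATA (chr5:91139556-91139585, +): ctccagcgggtcTATAAAagcagcaggtgc
Areg E-box (chr5:91139475-91139504, +): ttcctcccgcgtCAGCTGggtttttggagt
Epgn E-box (chr5:91027400-91027429, +): ggtaagaacagcCAGATGacgcttcgtgaa
The CRE of Areg began 61 bases and its TATA motif 31 bases before the start site, and 1.79% and 13.6% of all promoters held such a match. Epgn held a TATA motif too, at position -86 from its start site. CAGCTG, the type of E-box shown for Areg, occurred in 16.3% of promoters and CAGATG in 17.2%. The GC box, in 35.7% of promoters, was found in Tgfa, Areg and Egfr, and the AP-1 motif, in 7.81%, in none of the windows searched for the family. The windows of Egf and Erbb2 held no match to these motifs, and no window was searched for Ereg, Hbegf or Erbb3. A match is a description of the letters and not evidence that a factor binds there.

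To set genes beside each other, levels were divided by gene length (CPM per kb of exon). In WT SI the receptor Erbb3 stood highest (48.9 ± 4.36 CPM per kb, SD, n = 6), above the overlapping pair Erbb2 (26.9 ± 2.17) and Areg (26.7 ± 7.41). Hbegf followed at 16.9 ± 5.3, and Btc (9.04 ± 2.48), Egfr (7.63 ± 2.09) and Tgfa (4.93 ± 0.515) formed a run in which each overlapped its neighbour. Egf was far below them at 0.66 ± 0.125, and Ereg (0.0474 ± 0.0283) and Epgn (0.0248 ± 0.0311) were near 0. The Atoh1-lineage cells of the SI thus held chiefly Areg and Hbegf mRNA among the ligands. The order in 9S/T-A SI differed in that Areg (39.5 ± 9.96 CPM per kb) had the higher mean than Erbb2 (26.9 ± 1.57), while their ranges overlapped. In colon, Erbb3 (39.3 ± 5.8 in WT, 36.8 ± 5.66 in 9S/T-A) and Erbb2 (22.2 ± 2 and 20 ± 1.66) each stood clear of the next gene, and Hbegf and Areg overlapped below them. The level of Egf in colon (2.99 ± 0.409 CPM per kb in WT, 3.16 ± 0.663 in 9S/T-A) overlapped those of Tgfa, Egfr and Btc in both genotypes. This place depends on the length used: per kb of principal transcript, Egf in colon (7.09 in WT, 7.49 in 9S/T-A) stood above Tgfa (6.32 and 6.41), with which it overlapped, and above Egfr (3.6 and 3.94) and Btc (2.37 and 2.35), and it overlapped Areg (9.49 and 7.91).

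The mix of ligand mRNAs differed accordingly. As a share of the summed ligand level per kb, Areg made up 45.5% ± 3.69 in WT SI and 32% ± 1.67 in WT colon (SD, n = 6), and Hbegf 28.8% ± 4.15 and 38.5% ± 3.68. Egf was 1.2% ± 0.384 of the SI mix and 10.1% ± 1.81 of the colon mix in WT, and 0.957% ± 0.37 and 12.5% ± 2.54 in 9S/T-A. No library of SI reached the Egf share of any colon library: the highest SI share was 1.59% and the lowest colon share 7.97%. The absolute shares depend on the length used. Egf has 11275 bases of exon in the count files against 4761 in its principal transcript, and with the latter its share was 2.6% in WT SI and 19.3% in WT colon.

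**Figure D1:**
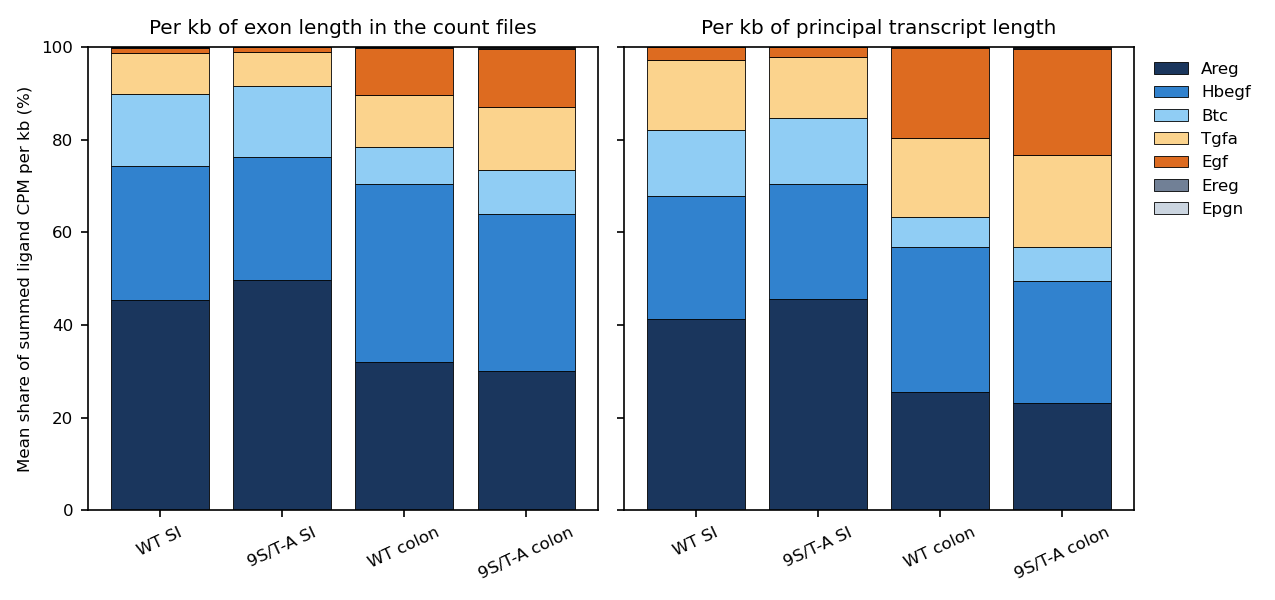
Mean share of each ligand mRNA in the summed ligand level (CPM per kb, %, n = 6 libraries per bar) for the 4 groups, with lengths from the count files (left) and from principal transcripts (right). Areg and Hbegf fill most of each SI bar in both panels, and Egf widens from 1.2% in WT SI to 10.1% in WT colon by the first length and from 2.6% to 19.3% by the second.

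The largest differences in the family were between tissues. In WT cells, 8 of the 9 members tested differed between colon and SI, with Egf higher and Tgfa, Areg, Btc, Hbegf, Egfr, Erbb2 and Erbb3 lower in colon. In 9S/T-A cells all 9 members tested differed, with Egf and Ereg higher and the same 7 lower. Tissue moved most genes: edgeR's quasi-likelihood test called 63.6% of 16979 genes in WT (33.1% higher, 30.4% lower) and 60.9% of 16938 genes in 9S/T-A (32.9% higher, 28% lower) at a Benjamini-Hochberg adjusted p under 0.05. The member counts of 8 of 9 and 9 of 9 stand against that background and do not mark the family out. The median log2 fold change of the members was -0.57 in WT and -0.78 in 9S/T-A, against 0.03 and 0.04 over all genes. Epgn was too low to be tested. In bulk samples fewer cells of a type and less RNA per cell cannot be told apart.

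These directions are relative to the typical gene. With counts scaled to plain library totals, the median gene was higher in colon by 0.74 (WT) and 0.85 (9S/T-A) on the log2 scale, and the calls split into 12241 higher and 1903 lower in WT, against 5625 and 5169 with TMM scaling, and into 12546 and 1653 in 9S/T-A, against 5576 and 4743. Egf, Areg and Btc kept their direction and their call under plain totals in both genotypes. Values for the members that did not are given with each gene.

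Egf, the founding ligand of the family, was the member with the clearest rise. Its level in WT SI ran from 5.08 to 8.63 CPM (median 8.04) and in WT colon from 26.8 to 39.9 CPM (median 34.6). In 9S/T-A it ran from 6.71 to 10.2 CPM (median 7.81) in SI and from 29.7 to 50 CPM (median 33.7) in colon. The tissues did not overlap in either genotype, a separation shared by 43.5% of all genes tested in WT and 41.1% in 9S/T-A, and colon was higher in 6 of 6 same-numbered pairs of libraries in both. The fold was 4.43 in WT (log2 fold change 2.15 ± 0.132, SE, n = 6 per tissue, edgeR adjusted p = 1.34e-09) and 4.39 in 9S/T-A (2.14 ± 0.139, adjusted p = 4.05e-09). In SI it was the lowest ligand per kb apart from Ereg and Epgn.

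Areg, which encodes amphiregulin, a ligand known from repair and inflammation, was lower in colon. WT SI libraries held 22.4 to 44.7 CPM (median 31.9) and WT colon libraries 10.1 to 14.4 CPM (median 11.2). The 9S/T-A libraries held 30.6 to 59.5 CPM (median 51.4) in SI and 5.4 to 14.1 CPM (median 8.79) in colon. All SI values lay above all colon values. Areg was 2.84-fold lower in colon in WT (log2 fold change -1.50 ± 0.164, SE, edgeR adjusted p = 1.05e-06) and 5.03-fold lower in 9S/T-A (-2.33 ± 0.24, adjusted p = 6.94e-07).

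Btc, encoding betacellulin, which binds both EGFR and ERBB4, lies in the same cluster and had the steepest fall. It was at 19.1 to 37.8 CPM (median 24.3) in WT SI and 5.29 to 8.62 CPM (median 6.87) in WT colon. In 9S/T-A the range was 23.4 to 52.3 CPM (median 35.9) in SI and 6.05 to 8.05 CPM (median 6.6) in colon. The tissues were again apart in every library. The difference was 3.9-fold in WT (log2 fold change -1.96 ± 0.174, edgeR adjusted p = 9.99e-08) and 5.3-fold in 9S/T-A (-2.41 ± 0.175, adjusted p = 1.33e-08).

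Hbegf (chr18:36504929-36515805, -), encoding heparin-binding EGF-like growth factor, differed less. Levels were 27 to 61.1 CPM (median 39.7) in WT SI, 22.1 to 38.5 CPM (median 26.2) in WT colon, 30.3 to 67.2 CPM (median 52.8) in 9S/T-A SI and 10.6 to 29.7 CPM (median 21.5) in 9S/T-A colon. The WT tissues overlapped and 1 of 6 same-numbered pairs was higher in colon, whereas the 9S/T-A tissues were apart. Hbegf fell by 0.57 ± 0.185 in WT (edgeR adjusted p = 0.0134) and by 1.26 ± 0.244 in 9S/T-A (adjusted p = 0.000352). The WT call was lost without the libraries numbered 2 (-0.49, adjusted p = 0.0657), and with plain totals the WT difference turned to 0.15 (adjusted p = 0.484) and the 9S/T-A one shrank to -0.42 (adjusted p = 0.132).

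Tgfa, encoding transforming growth factor alpha, varied least among the expressed ligands, with coefficients of variation of 7.81% to 10.5% within the groups. It stood at 36.8 to 49 CPM (median 42.3) in WT SI and 24.8 to 32.5 CPM (median 28.5) in WT colon, and at 40.9 to 55.3 CPM (median 49.2) and 25.9 to 31.8 CPM (median 29.5) in 9S/T-A. SI was higher in every library of both genotypes. The fall was 0.60 ± 0.0848 on the log2 scale in WT (edgeR adjusted p = 1.47e-05) and 0.78 ± 0.0833 in 9S/T-A (adjusted p = 1.01e-06), but 0.11 and 0.02 higher in colon with plain totals, neither of which passed the test.

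Ereg and Epgn, encoding epiregulin and epigen, were barely detected. Ereg had 2 to 37 counts per library, or 0.0639 to 0.413 CPM in WT SI, 0.0785 to 0.297 in 9S/T-A SI, 0.188 to 0.407 in WT colon and 0.244 to 0.506 in 9S/T-A colon, with the tissues overlapping in both genotypes. It was 1.85-fold higher in colon in 9S/T-A (log2 fold change 0.89 ± 0.33, edgeR adjusted p = 0.0297) and 1.56-fold higher in WT, where it did not pass (0.64 ± 0.343, adjusted p = 0.116). The 9S/T-A call was lost without the libraries numbered 7 (0.58, adjusted p = 0.118), without those numbered 2 (0.90, adjusted p = 0.0658) and with no filter on low counts (0.92, adjusted p = 0.0524). It was also lost in 4 of the 12 edgeR fits that left out a single library, those without colon library 2 (adjusted p = 0.0547) or 7 (0.0601) and without SI library 5 (0.0654) or 7 (0.0672). In WT, Ereg passed without SI library 3 (1.02, adjusted p = 0.0145) and with plain totals (1.38, adjusted p = 0.00156). Epgn had 0 to 9 counts per library and 0 counts in 3 WT SI libraries, so no group difference could be detected at this depth.

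**Figure D2:**
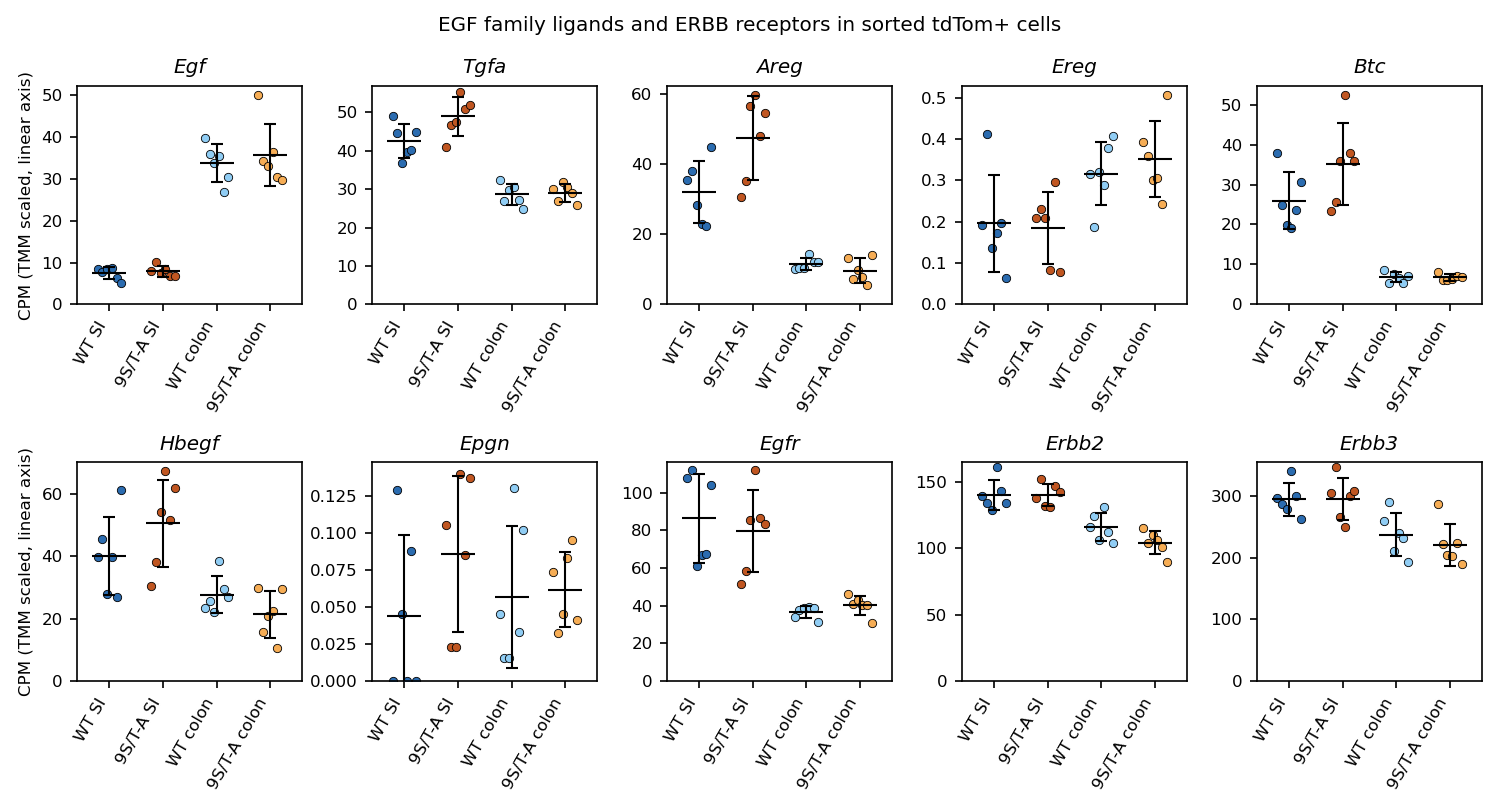
TMM-scaled CPM (linear axes from 0, 1 scale per gene) of the 10 genes in the 24 libraries, coloured by group, with the mean and SD of 6 libraries. Egf separates the tissues upward (SI at most 10.2, colon at least 26.8 CPM) and Areg and Btc downward, while the WT and 9S/T-A points of each tissue overlap for every gene.

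Among the receptors, Egfr, the receptor that binds all 7 ligands, differed most by tissue. WT SI libraries held 61 to 112 CPM (median 85.4) and WT colon libraries 31.4 to 39.3 CPM (median 38.3). In 9S/T-A, SI held 51.3 to 112 CPM (median 84.5) and colon 30.7 to 46 CPM (median 40.6). No SI library reached down to the colon range. Egfr fell by 1.27 ± 0.153 on the log2 scale in WT (2.41-fold lower in colon, edgeR adjusted p = 2.93e-06) and by 1.02 ± 0.166 in 9S/T-A (2.02-fold, adjusted p = 7.57e-05); with plain totals the 9S/T-A difference was -0.20 (adjusted p = 0.164). The spread was wider in SI, with coefficients of variation of 27.4% and 27.7% against 8.7% and 12.8% in colon.

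Erbb2 and Erbb3, the partner receptors, were the most abundant members in raw CPM and changed little. Erbb2 was at 129 to 161 CPM (median 136) in WT SI, 104 to 131 CPM (median 114) in WT colon, 131 to 152 CPM (median 140) in 9S/T-A SI and 89.7 to 115 CPM (median 105) in 9S/T-A colon. It was lower in colon by 0.31 ± 0.0763 in WT (edgeR adjusted p = 0.00224) and 0.45 ± 0.0749 in 9S/T-A (adjusted p = 8.51e-05), but higher in colon by 0.40 (adjusted p = 0.000264) and 0.34 (adjusted p = 0.00107) with plain totals. Erbb3 was at 263 to 340 CPM (median 292), 192 to 290 CPM (median 235), 250 to 346 CPM (median 302) and 190 to 286 CPM (median 213) in the same order of groups. Its difference was -0.35 ± 0.0998 in WT (adjusted p = 0.00682) and -0.44 ± 0.11 in 9S/T-A (adjusted p = 0.00276), and 0.36 (adjusted p = 0.00179) and 0.35 (adjusted p = 0.0141) with plain totals. Both receptors thus fell relative to the typical gene and rose as a share of all counted reads.

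Sums of marker genes of other cell types differed by tissue too, though the genes within a list did not all move alike. The 6 absorptive genes summed to 861 to 2672 CPM in WT SI and 1343 to 3057 CPM in 9S/T-A SI against 46.3 to 104 CPM over both colon groups. Of these, Alpi, Fabp1, Apoa1 and Sis were lower in colon in both genotypes. Slc26a3 was not (means of 25.6 and 26.6 CPM in WT SI and colon, 24.1 and 34.2 in 9S/T-A), nor was Car4 (18.4 and 28, 14 and 33.1). The 4 stem cell genes summed to 733 to 1094 CPM in WT SI against 40.9 to 53.5 CPM in WT colon. Most of that sum in WT SI was Olfm4 (mean 785 against 0.827 CPM in WT colon). Smoc2 was at 93.5 against 32.2 CPM, Lgr5 at 21.4 against 10.9 and Ascl2 at 6.22 against 4.94. Reg4 and Kit, which mark deep crypt secretory cells of the colon, summed to 400 to 797 CPM in WT SI and 1250 to 1909 CPM in WT colon, and the 5 leukocyte genes to 11.4 to 20 CPM and 5.56 to 7.58 CPM. The part of these cell types in the tissue differences of the family was not tested.

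The mutant line was made to ask what ATOH1 phosphorylation does for self-renewal by secretory progenitors. For the EGF family, no member passed the test in either tissue. In SI, 0 of 8 members tested were called, where 1.94% of 16236 genes were, and 3 members had an unadjusted p under 0.05. In colon, 0 of 9 members were called, where 0.318% of 16997 genes were, and 0 had an unadjusted p under 0.05. DESeq2 also called 0 members in both tissues.

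In SI the values for Areg, Btc and Tgfa leaned towards 9S/T-A without passing the adjustment. Areg had a log2 fold change of 0.57 (95% interval 0.15 to 0.99, edgeR adjusted p = 0.173), Btc 0.44 (0.01 to 0.86, adjusted p = 0.306) and Tgfa 0.20 (0.02 to 0.39, adjusted p = 0.272). Library by library, from number 2 to number 7, Areg was at 35.5, 38, 28.4, 23, 22.4 and 44.7 CPM in WT and at 30.6, 35.2, 56.5, 59.5, 48.1 and 54.6 CPM in 9S/T-A. The 4 highest 9S/T-A libraries lay above every WT library and the other two within the WT range, and 4 of 6 same-numbered pairs were higher in 9S/T-A. Without the libraries numbered 2 the value was 0.70 (adjusted p = 0.0665), and over all leave-one-out fits of Areg it ran from 0.49 to 0.70 with adjusted p from 0.0614 to 0.344. In 9S/T-A SI the Paneth sum had a median of 64656 CPM against 86430 CPM in WT SI, and the absorptive sum 1731 against 1345 CPM. The goblet sum had a median of 453150 against 321782 CPM, the epithelial sum 10960 against 9263 CPM, the enteroendocrine sum 203 against 288 CPM and the tuft sum 37.7 against 78 CPM. For the stem cell genes the median was 732 against 881 CPM, for genes of cycling cells 183 against 247 CPM and for Reg4 with Kit 786 against 535 CPM. Within 9S/T-A SI the goblet sum was lowest in library 2 (319952 CPM) and highest in library 5 (507454 CPM), the libraries in which Areg was lowest and highest. In WT SI the goblet sum was highest in libraries 2 (442677 CPM) and 3 (412277 CPM), where Areg was at 35.5 and 38 CPM. In libraries 4, 5 and 6 it was 315880, 325013 and 318551 CPM, with lower Areg (28.4, 23 and 22.4 CPM). Library 7 departed from this order, with the lowest goblet sum (314610 CPM) and the highest Areg (44.7 CPM). The part of these cell types in the values of the members was not tested.

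Egfr in SI had a difference of -0.12 (95% interval -0.55 to 0.31, edgeR adjusted p = 0.819). Its libraries were widely spread. WT libraries 2, 3 and 7 were at 108, 112 and 104 CPM and libraries 4, 5 and 6 at 61, 67 and 67.2 CPM. In 9S/T-A, libraries 2 and 3 were lowest, at 51.3 and 58.5 CPM, and library 5 highest, at 112 CPM. Erbb2 and Erbb3 were measured more tightly: the differences were 0.00 (95% interval -0.14 to 0.15) and 0.01 (-0.18 to 0.19), so the data leave room for changes of up to 1.11-fold and 1.14-fold upward. Egf was at 0.09 (-0.21 to 0.40) and Hbegf at 0.33 (-0.12 to 0.79).

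In colon the 9S/T-A minus WT differences ran from -0.34 for Hbegf (95% interval -0.82 to 0.13, edgeR adjusted p = 0.764) to 0.17 for Ereg (-0.36 to 0.70, adjusted p = 0.991). Areg was at -0.24 (-0.69 to 0.20), Erbb2 at -0.13 (-0.27 to 0.02), Egfr at 0.15 (-0.03 to 0.32) and Egf at 0.10 (-0.16 to 0.36). For Tgfa (0.04, -0.11 to 0.19), Btc (0.01, -0.27 to 0.29) and Erbb3 (-0.08, -0.30 to 0.15) the intervals also spanned 0. WT and 9S/T-A libraries overlapped for every member in both tissues, where 2.07% of genes tested in SI and 0.906% in colon had groups that did not.

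**Figure D3:**
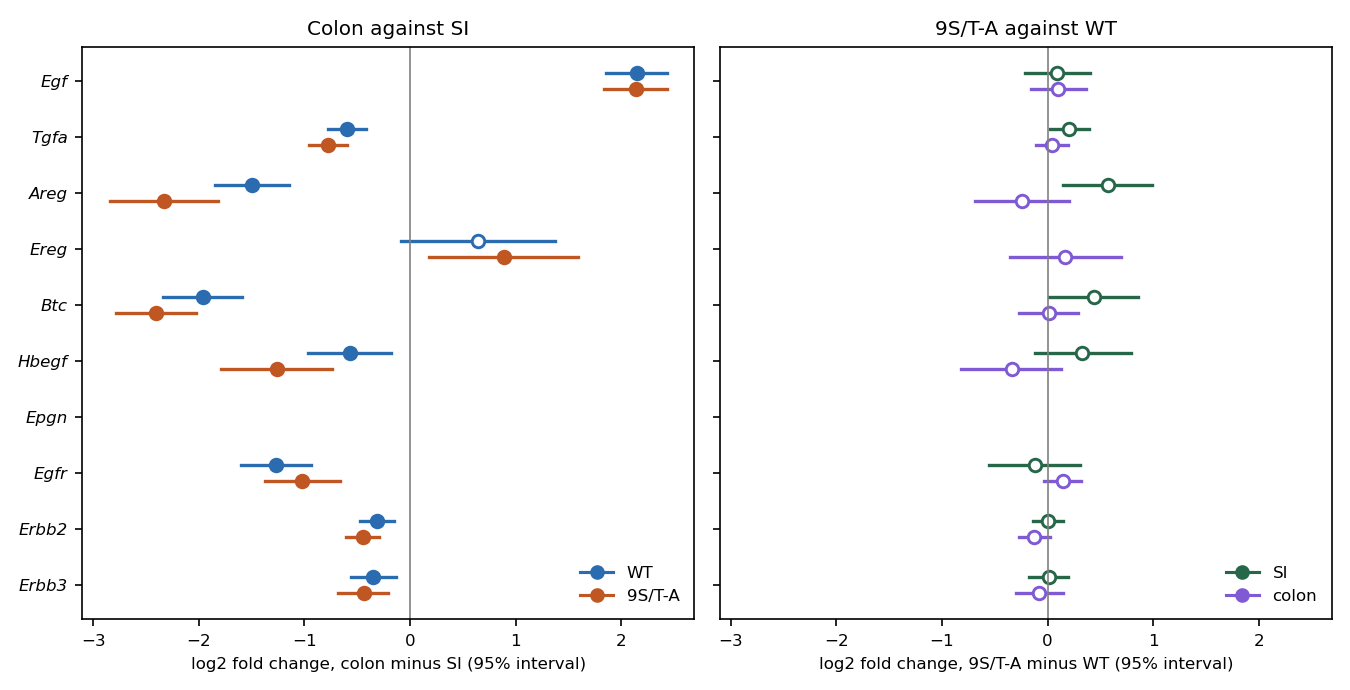
Log2 fold changes from edgeR with 95% intervals for colon minus SI (left, WT and 9S/T-A) and 9S/T-A minus WT (right, SI and colon), filled where the adjusted p was under 0.05. With TMM scaling, Egf stands at about 2.15 on the left and 7 members lie below 0, of which Tgfa, Erbb2 and Erbb3 in both genotypes and Hbegf in WT turn positive with plain totals, and no symbol on the right is filled. Epgn was not tested and Ereg was not tested in SI.

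Whether the genotype difference itself differed between tissues was tested as a product term over all 24 libraries, where 0.412% of 17953 genes and 0 of 9 members passed. Areg had the member value farthest from 0, at -0.83 (95% interval -1.44 to -0.22, edgeR adjusted p = 0.278), followed by Hbegf at -0.70 (-1.36 to -0.03, adjusted p = 0.484). The negative sign means a lower 9S/T-A minus WT difference in colon than in SI. The other 7 members ran from -0.45 to 0.25.

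Apart from the groups, some members varied together from library to library. After subtraction of each group's mean, Pearson's r of log2(CPM + 1) over the 24 libraries was 0.91 for Areg with Hbegf, which lie on different chromosomes, and this was the closest gene to Areg of 11636 compared. Hbegf was closest to Errfi1 (r = 0.93), an induced inhibitor of the EGFR kinase, and Areg second closest to it (0.88). The relation of Areg with Hbegf was 0.88 within SI and 0.94 within colon, and 0.88 without the 4 libraries numbered 7. In 9S/T-A colon, Areg was at 13.3 and 14.1 CPM and Hbegf at 29.7 and 29.6 CPM in libraries 2 and 7, while library 6 had the lowest value of both, 5.4 and 10.6 CPM. These points share depth, scaling and cell mix, so r is given as a description only.

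Egfr ran closest to Dusp6 (r = 0.91), a phosphatase of ERK that is induced by ERK activity, with r = 0.95 within SI and 0.65 within colon. Dusp6 in WT SI was at 101, 95.4 and 87.6 CPM in libraries 2, 3 and 7 and at 59.8, 60.2 and 64.8 CPM in libraries 4, 5 and 6, the same split as for Egfr. In 9S/T-A SI, Dusp6 was lowest in library 2 (53.3 CPM) and highest in library 5 (123 CPM), again as for Egfr. Dusp6 was picked for its r with Egfr over these same libraries, so a like order of libraries comes with that choice and adds no support. The sum of 5 general epithelial genes split likewise, at 9793, 9655 and 9590 CPM in WT SI libraries 2, 3 and 7 against 8682, 8936 and 8014 CPM in libraries 4, 5 and 6, and in 9S/T-A SI it was lowest in library 2 (8988 CPM) and highest in library 5 (12317 CPM). Its part in this relation was not tested. The second closest gene was Ppp1r15b (0.90).

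Several members moved together within SI, with lower values within colon; the difference was not tested. Within SI (n = 12), Egfr had r of 0.92 with Tgfa, 0.90 with Areg, 0.90 with Btc and 0.86 with Hbegf. Within colon the corresponding values were 0.53, -0.16, -0.17 and -0.06. Within SI, Erbb2 and Erbb3 formed a separate pair (r = 0.88), and Erbb3 had r = -0.70 with Areg. Within colon the pair (r = 0.72) was not separate: Erbb2 had r = 0.76 with Egfr, and Erbb3 had 0.71 with Egf. Egf had r of -0.12 to Areg and 0.11 to Tgfa over the 24 libraries, but the sign differed between tissues. With Tgfa its r was -0.22 within SI and 0.51 within colon, and with Areg -0.44 and 0.21. The genes closest to Egf over the 24 libraries were Acadm (0.85) and Igbp1 (0.85). The nearest genes of the others were Dyrk1a (0.90) and Efnb2 (0.87) for Tgfa, Pcgf3 (0.88) and Gnaq (0.86) for Btc, Usp30 (0.84) and Pcif1 (0.79) for Erbb2, and Ctdsp2 (0.89) and Usp30 (0.83) for Erbb3. The values for Ereg were too sparse to read.

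**Figure D4:**
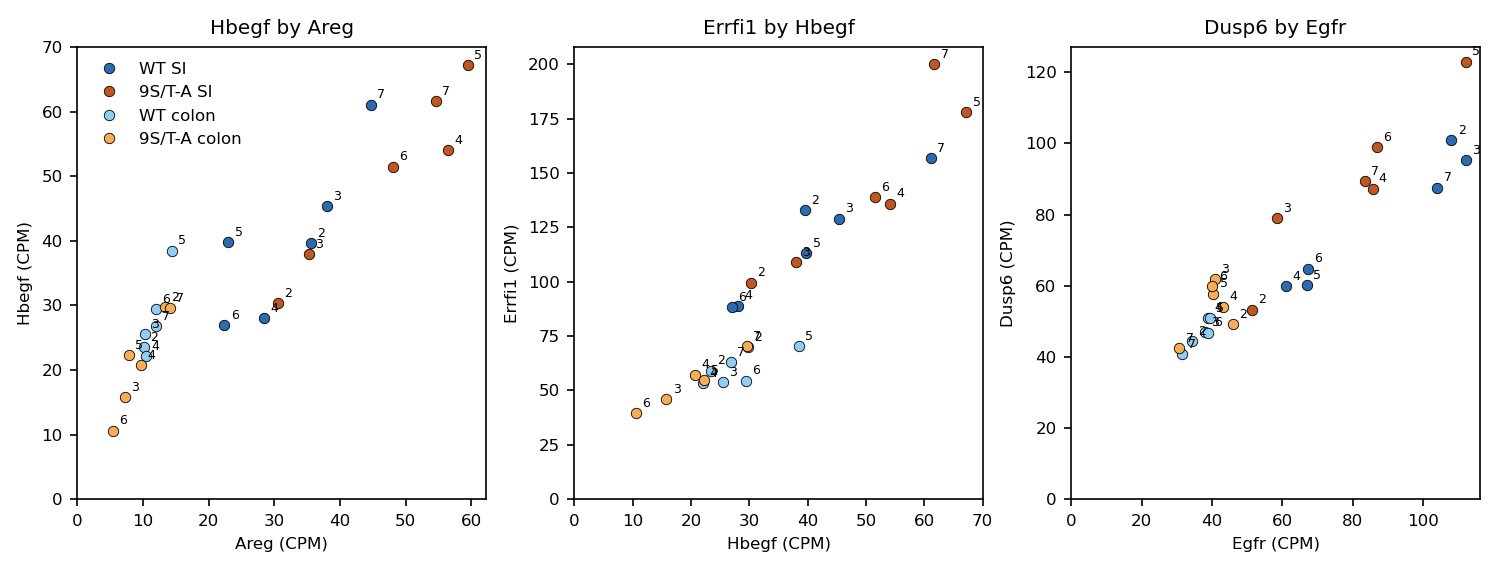
CPM of Hbegf against Areg, Errfi1 against Hbegf and Dusp6 against Egfr (linear axes from 0) in the 24 libraries, coloured by group and marked with the library number. SI libraries spread along each relation, for example from 27 to 67.2 CPM of Hbegf, and for Dusp6 against Egfr WT SI libraries 2, 3 and 7 lie apart from 4, 5 and 6. The pairs were picked for their high r in these same libraries.

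The pathway around the family was described with 57 further genes in 6 lists. None of those tested passed the test of genotype in SI or colon or of the product, so the lists gave 0 calls where 1.94%, 0.318% and 0.412% of all genes tested were called. Only 1 of 5 other ligand and receptor genes and 5 of 6 shedding genes were tested, and all genes of the remaining lists. Etv5, a transcription factor induced by ERK, came nearest in colon: WT libraries held 52.9 to 93.3 CPM (median 79.1) and 9S/T-A libraries 94.7 to 143 CPM (median 112), without overlap, as for 0.906% of genes in that comparison. Its log2 fold change was 0.61 ± 0.124 (edgeR adjusted p = 0.0593). Etv5 passed with DESeq2 (adjusted p = 0.000692), with no filter (0.0442), with sex as a covariate (0.0382) and without colon 9S/T-A library 7 (0.0406). It did not pass in the other 11 of 12 edgeR fits that left out a single library (adjusted p up to 0.133). Of 10 other alternative fits, 5 called it and 5 did not (edgeR adjusted p up to 0.171).

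Of the remaining ligand and receptor genes, Nrg1, Nrg2, Nrg3 and Erbb4 were at or below 0.0547 CPM in every library and were not tested. The cells with abundant Erbb3 mRNA thus held next to no mRNA of Erbb4 or of these neuregulins. Nrg4 was the neuregulin that was measurable, at 1.34 ± 0.47 CPM in WT SI and 0.722 ± 0.226 CPM in WT colon (SD, n = 6), 1.9-fold lower in colon in WT (edgeR adjusted p = 0.00669) and 2.01-fold lower in 9S/T-A (adjusted p = 0.000756). With plain totals the log2 fold change was -0.19 in both and was not called.

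Among the genes that release ligands from the membrane, 2 of 5 tested were higher and 2 lower in colon in WT, and 2 higher and 1 lower in 9S/T-A. Of all genes tested, 33.1% were higher and 30.4% lower in WT, and 32.9% and 28% in 9S/T-A. Counts for this and the following lists were taken with TMM scaling only. Plain totals moved the median gene by 0.74 (WT) and 0.85 (9S/T-A) on the log2 scale, so the splits depend on the scaling. Adam10, a sheddase of Egf and Btc, was lower in colon by 0.65 in WT (edgeR adjusted p = 4.73e-05) and by 0.56 in 9S/T-A (adjusted p = 0.000288), but higher by 0.06 and 0.24 with plain totals. Rhbdf2, which escorts the sheddase ADAM17 to the cell surface, was higher by 0.47 (adjusted p = 0.000473) and 0.70 (adjusted p = 1.95e-07).

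Genes that restrain the receptors went both ways, 3 of 6 higher and 2 lower in colon in both genotypes. The shares over all genes were 33.1% higher and 30.4% lower in WT, and 32.9% and 28% in 9S/T-A. Lrig3, a relative of the receptor inhibitor Lrig1, rose most, from 15.9 to 20.4 CPM (median 19) in WT SI to 96.3 to 120 CPM (median 101) in WT colon, with no overlap, a log2 fold change of 2.47 ± 0.0806 (edgeR adjusted p = 9.81e-13) and of 2.77 ± 0.0947 in 9S/T-A (adjusted p = 2.57e-12). Errfi1 fell, as Areg and Hbegf did, by 1.03 ± 0.134 in WT (adjusted p = 6.52e-06) and 1.38 ± 0.186 in 9S/T-A (adjusted p = 1.23e-05). In the cascade itself, 3 of 17 genes were higher and 9 lower in WT, and 2 higher and 11 lower in 9S/T-A; the widest differences were those of the kinase Map2k2 (-0.94, adjusted p = 3.22e-07) and the adaptor Gab1 (0.72, adjusted p = 6.95e-05) in WT.

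The feedback genes of ERK and the transcription factors that respond to it also went both ways between tissues. As background, 33.1% of all genes were higher and 30.4% lower in colon in WT, and 32.9% and 28% in 9S/T-A. Of 9 feedback genes, 3 were higher and 5 lower in colon in WT, and 3 higher and 3 lower in 9S/T-A. Spry1 fell from 75 ± 11.7 CPM in WT SI to 14.7 ± 1.17 CPM in WT colon (log2 fold change -2.39 ± 0.105, edgeR adjusted p = 2.58e-11), while its relative Spry4 was higher in colon at a much lower level, 0.188 ± 0.142 against 1.12 ± 0.387 CPM (2.48 ± 0.462, adjusted p = 0.000229). Of 14 transcription factors, 5 were higher and 5 lower in WT, and 3 higher and 8 lower in 9S/T-A. Etv5 rose 8.47-fold in WT, from 8.76 ± 2.5 to 76.2 ± 14.7 CPM (log2 fold change 3.08 ± 0.192, adjusted p = 1.51e-09), and 14.2-fold in 9S/T-A (3.83 ± 0.128, adjusted p = 1.92e-12). Etv4, its close relative, rose 3.89-fold in WT, from 1.77 ± 0.437 to 7.07 ± 1.29 CPM (adjusted p = 8.83e-08), and 5.4-fold in 9S/T-A (adjusted p = 9.04e-06).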

How the data were processed

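Libraries were made with a stranded mRNA kit and read as single ends. Per the labels and the study's methods, the authors aligned reads to GRCm38.p3 with TopHat2 2.1.1, and the deposited values are unnormalized counts of reads over the exons of each Ensembl gene, made with featureCounts (Subread 1.5.2) by strand and from primary alignments. Symbols came from GENCODE M21, which named 98.15% of the 45513 genes; the remaining genes held 0.0723% of counts.

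The 10 members and all lists were chosen with earlier results of these data known. The main test was the two-sided quasi-likelihood test of edgeR 4.0.16 (R 4.3.3), after filterByExpr on the groups and with TMM scaling, in the 12 libraries of each comparison, or all 24 for the product of genotype and tissue. Benjamini-Hochberg values were taken over all genes tested and called under 0.05. Intervals of 95% and standard errors came from the fit. CPM used TMM factors over all 24 libraries. Fits with DESeq2 1.42.0, DESeq2-type size factors, plain library totals, no filter, a mean of at least 10 counts, a replicate block, sex as a covariate, all libraries in 1 fit and each library left out were alternatives. Fits without all libraries numbered 7 or 2, and principal transcript lengths, were added after seeing the data.

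All members are named; pathway genes are named if called for genotype or among the 2 widest tissue differences of their list in WT, and genes like a member are the 2 of highest r with mean log2 CPM of at least 1. Dusp6, ranked by the last rule, was also given by library after its values were seen. No printed test was paired unless a replicate block is named. Library numbers did pair the tissues: deviations from group means correlated over 0.1 in 6 of 6 pairs, at a mean of 0.29 in WT and 0.37 in 9S/T-A, against -0.05 and -0.07 between other numbers. The series' text counts 6 mice, and the study's expression figure gives n = 6 for each genotype without naming the unit. The labels do not tie libraries to animals, so p-values measure the spread between libraries, which may be partly technical. Promoters were read from RefSeq on GRCm38.p6; the promoter of Btc is not reported here.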

Additional observations from a re-analysis of the deposited data

Results flagged for a closer look

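Of 40 groups of 6 libraries examined for a single value far from the others, a test that flags about 1 in 20 by chance, 2 had one, both in 9S/T-A colon library 2. Egf stood at 50 CPM there, with the next library at 36.5 and the lowest at 29.7 CPM. Erbb3 stood at 286 CPM, with the next at 223 and the lowest at 190 CPM.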

How the results depend on the processing

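The number of genes called for genotype moved more than any member. In SI it was 315 and became 779 with DESeq2, 520 with all 24 libraries in 1 fit and 188 to 779 over the fits that left out libraries (550 without 9S/T-A SI library 2, 779 without both libraries numbered 2, and 188 to 205 without 9S/T-A SI library 4 or 5 or WT SI library 3, 4 or 6). In colon it was 54 and became 244 with DESeq2, 90 with no filter, 89 with sex as a covariate, 103 with all 24 libraries and 30 to 75 with libraries left out (30 and 31 without WT colon library 5 or 2). The product gave 74 calls, 253 with DESeq2 and 43 to 112 with libraries left out (43 without the libraries numbered 7, 112 without 9S/T-A SI library 2). No member was called for genotype or for the product in any of these fits.

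With the replicate number as a block, the calls rose to 477 in SI, 385 in colon and 342 for the product, with 0 members among them. By the labels, same-numbered libraries of the 2 genotypes share a number and a sex. Same-number correlations averaged 0.19 in SI (-0.09 to 0.70, own number best in 2 of 6) and 0.41 in colon (0.02 to 0.85, own best in 4 of 6). Between other numbers they averaged -0.03 and -0.07. Etv5 in colon passed under the block (0.62, adjusted p = 0.0118), and the block changed no tissue call of a member or a named pathway gene. Over the lists, tissue calls under the block were 13 instead of 12 for the cascade in WT, and in 9S/T-A 8 instead of 6 for the feedback genes, 12 instead of 11 for the transcription factors and 4 instead of 3 for the shedding genes.

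Plain library totals turned the small SI differences of Egf to -0.01, Erbb2 to -0.11, Erbb3 to -0.10, Gab1 to -0.05 and Nrg4 to -0.04, and in colon those of Btc to -0.03 and Nrg4 to -0.03. For tissue in WT they turned Tgfa to 0.11, Hbegf to 0.15, Erbb2 to 0.40, Erbb3 to 0.36 and Adam10 to 0.06, and in 9S/T-A Tgfa to 0.02, Erbb2 to 0.34, Erbb3 to 0.35 and Adam10 to 0.24. For the product, Egf became 0.07 and Nrg4 0.01. With all 24 libraries, Btc in colon became -0.01 and Nrg4 -0.02, and Nrg4 -0.01 with sex. The product of Egf became 0.01 with no filter and 0.00 with at least 10 counts. The cause of these turns was not tested.

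With libraries left out, differences near 0 crossed it: in SI Egfr (-0.24 to 0.05), Erbb2 (-0.03 to 0.04), Erbb3 (-0.05 to 0.05), Gab1 (-0.02 to 0.14) and Nrg4 (-0.06 to 0.21); in colon Egf (-0.01 to 0.15), Btc (-0.06 to 0.08), Adam10 (-0.01 to 0.12), Errfi1 (-0.13 to 0.04), Etv4 (-0.08 to 0.33), Map2k2 (-0.00 to 0.13) and Nrg4 (-0.11 to 0.11); and for the product Egf (-0.14 to 0.09), Ereg (-0.08 to 0.45), Nrg4 (-0.23 to 0.06), Spry4 (-0.39 to 0.08) and Atoh1 (-0.08 to 0.12). Principal transcript lengths moved the levels per kb of Egf (1.56 in WT SI, 7.09 in WT colon) and Tgfa (9.38 and 6.32), and that of Egfr in WT colon (3.6 against 3.24). Depth limits Ereg and Epgn alone among the members.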
